A study of Mus musculus with 7 samples.

Results

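The mevalonate arm of cholesterol synthesis is the run of enzymes that turns acetyl-CoA into squalene. The 8 genes considered were Acat2, Hmgcs1, Mvk, Pmvk, Mvd, Idi1, Fdps and Fdft1. They were found by gene symbol in the annotation of the array's probe sets, and where a gene had several probe sets the one with the highest mean over the 7 arrays was used. A probe set was found for 7 of the 8, which are described here among 10966 genes (12076 probe sets) tested in all, and Acat2 was not analysed here. Liver mRNA was measured at Zeitgeber Time (ZT) 2, 6, 10, 14, 18, 22 and 26, where ZT0 is lights on and ZT26 falls at the clock time of ZT2 on the next day. Each time point was 1 Affymetrix Mouse Gene 1.0 ST array hybridized with a pool of RNA from 5 livers, 500 ng from each. The animals were male C57/BL6 mice, labelled as 9 to 11 weeks old, while the study's methods give an older age at sacrifice. They were kept in 12 h of light and 12 h of dark, with food given only in the dark phase, from ZT12 to ZT24, for the last 7 days. All groups shared this strain, sex and feeding schedule and carried no engineered allele, so time was the only factor that differed. Because there was 1 pool per time, the spread between animals could not be measured. Standard errors below come from the scatter of the 7 arrays about a fitted curve. The scatter of each probe set was drawn toward that of all tested probe sets, so these errors are not those of the gene alone.

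Sterol synthesis in liver begins in the cytosol, where a pair of acetyl-CoA molecules is joined and a further one is added to give HMG-CoA. Mevalonate made from it is phosphorylated in successive steps, decarboxylated to the C5 isoprenoid unit, and these units are condensed to farnesyl diphosphate, which squalene synthase commits to sterols. Transcription of the pathway is controlled by SREBP-2, a membrane-bound factor that is released when sterols in the endoplasmic reticulum are low and that binds sterol regulatory elements together with NF-Y (which reads CCAAT) and Sp1 (which reads GC boxes). In rodents that feed at night, hepatic sterol synthesis is known to follow a daily cycle.

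Since SREBP-2 is the textbook regulator of these enzymes, promoters of 5 of the 7 measured genes were read from a RefSeq table (GRCm38.p6), and those of Fdps and Fdft1 were not analysed here. The 150 bases before the start are shown so that the spacing of the elements can be compared, with capitals marking matches to the sterol regulatory element TCACNCCAC, to CCAAT and to GGGCGG, each on either strand.
Hmgcs1, chr13:119690201-119690350, plus strand: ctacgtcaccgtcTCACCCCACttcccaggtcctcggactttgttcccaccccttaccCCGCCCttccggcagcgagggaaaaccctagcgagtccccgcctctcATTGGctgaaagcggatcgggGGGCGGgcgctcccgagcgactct
Mvk, chr5:114444119-114444268, plus strand: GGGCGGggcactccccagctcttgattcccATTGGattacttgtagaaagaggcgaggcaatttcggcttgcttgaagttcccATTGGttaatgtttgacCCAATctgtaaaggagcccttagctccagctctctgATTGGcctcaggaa
Pmvk, chr3:89454391-89454540, plus strand: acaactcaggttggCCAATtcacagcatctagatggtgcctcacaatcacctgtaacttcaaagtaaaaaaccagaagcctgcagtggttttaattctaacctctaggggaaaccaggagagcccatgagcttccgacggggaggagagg
Mvd, chr8:122443423-122443572, minus strand: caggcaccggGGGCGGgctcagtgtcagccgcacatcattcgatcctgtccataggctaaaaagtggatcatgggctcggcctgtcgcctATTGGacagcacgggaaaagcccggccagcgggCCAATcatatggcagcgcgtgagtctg
Idi1, chr13:8885456-8885605, plus strand: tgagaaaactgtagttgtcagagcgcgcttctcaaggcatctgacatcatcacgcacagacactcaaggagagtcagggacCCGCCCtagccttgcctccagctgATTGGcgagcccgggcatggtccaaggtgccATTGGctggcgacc
In the 250 bases before the start, Hmgcs1 alone of the 5 held the sterol regulatory element as searched, at 137 to 129 bases before the start, and 1.05% of all 32851 promoters held it. CCAAT was found in all 5, while 33.8% of all promoters held it. Mvk had 5 copies, Hmgcs1 3, Mvd and Idi1 2 each, and Pmvk 1. GGGCGG was found in Hmgcs1, Mvk, Mvd and Idi1, with 32.7% of all promoters holding it. The nuclear receptor element AGGTCA (14% of promoters) was matched only in Hmgcs1, outside the bases shown, and neither the E-box CACGTG (6.02%) nor the D-box TTATGNAA (3.07%) was matched in any of the 5. No motif searched overlapped another in these windows. Pmvk had another annotated start downstream, whose upstream bases held none of these matches. A match is a run of letters and was not a measurement of binding.

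All values are log2 signals after RMA, the normalization that sets the distribution of the arrays equal, and array medians lay between 6.37 and 6.40. The 7 members were well within the range of the arrays, since their lowest single value was 254 units on the natural scale, against the minimum mean of 85 units required for testing, and their highest was 12.21 against 14.48 for the brightest probe set of any array. Levels were not compared between genes, because probe sets differ in how brightly they report the same amount of RNA. In pooled whole liver, fewer cells of a type and less RNA per cell cannot be told apart. The clock genes used as a time reference gave fitted peaks at ZT22.8 for Arntl (which encodes BMAL1), ZT10.9 for Dbp and ZT15.1 for Per2, and all 3 were called rhythmic (limma adjusted p = 0.0247, 0.0151 and 0.00248).

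Hmgcs1 encodes cytosolic HMG-CoA synthase, near the entry to the pathway, and varied more than any other member. Its log2 signal was 11.87 at ZT2, 11.45 at ZT6, 10.98 at ZT10, 10.02 at ZT14, 11.45 at ZT18, 11.60 at ZT22 and 11.96 at ZT26. It was lower on each array from ZT2 to ZT14, higher on each array from there to ZT26, and spanned 3.84-fold between ZT14 and ZT26.

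The kinases and the decarboxylase act on mevalonate in turn. Mvk, mevalonate kinase, gave 9.02, 8.73, 8.72, 8.15, 8.64, 8.82 and 9.07 from ZT2 to ZT26. Its ZT14 value stood apart below the others, which lay within a narrow band, and its highest array was 1.89-fold above the lowest. Pmvk, phosphomevalonate kinase, which adds the next phosphate, gave 8.96, 8.34, 8.36, 7.99, 9.14, 9.09 and 8.82. Its high values were at ZT18 and ZT22, its low ones from ZT6 to ZT14, and it spanned 2.22-fold. Mvd, the decarboxylase that makes isopentenyl diphosphate, gave 8.62, 8.15, 8.11, 8.12, 9.22, 8.72 and 8.91. It was flat from ZT6 to ZT14, highest at ZT18, and spanned 2.15-fold.

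Idi1, the isomerase that supplies dimethylallyl diphosphate, gave 11.57, 11.32, 11.02, 10.88, 11.32, 11.39 and 11.59 from ZT2 to ZT26, a span of 1.64-fold with ZT14 lowest. Fdps, farnesyl diphosphate synthase, gave 11.72, 11.40, 11.33, 11.14, 11.46, 11.65 and 11.64, again with ZT14 lowest, and at 1.49-fold had the smallest span of the 7. Fdft1, squalene synthase, gave 12.07, 11.66, 11.81, 11.49, 12.18, 12.00 and 12.21, a span of 1.65-fold. A span of 1.5-fold or more was seen in 6 of the 7 members and in 16.3% of all tested probe sets. Idi1 and Fdft1 each had another probe set, which may share probes with the one used. That of Idi1 gave 11.28, 11.02, 10.74, 10.60, 11.02, 11.08 and 11.29, the same course (Pearson r = 1.00 over 7 arrays), and was called rhythmic as well (limma adjusted p = 0.0351). That of Fdft1 gave 11.99, 11.67, 11.78, 11.37, 12.02, 12.11 and 12.21 (r = 0.95), with ZT22 above ZT18 here and below it in the probe set used, and it was not called (adjusted p = 0.148).

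**Figure D1:**
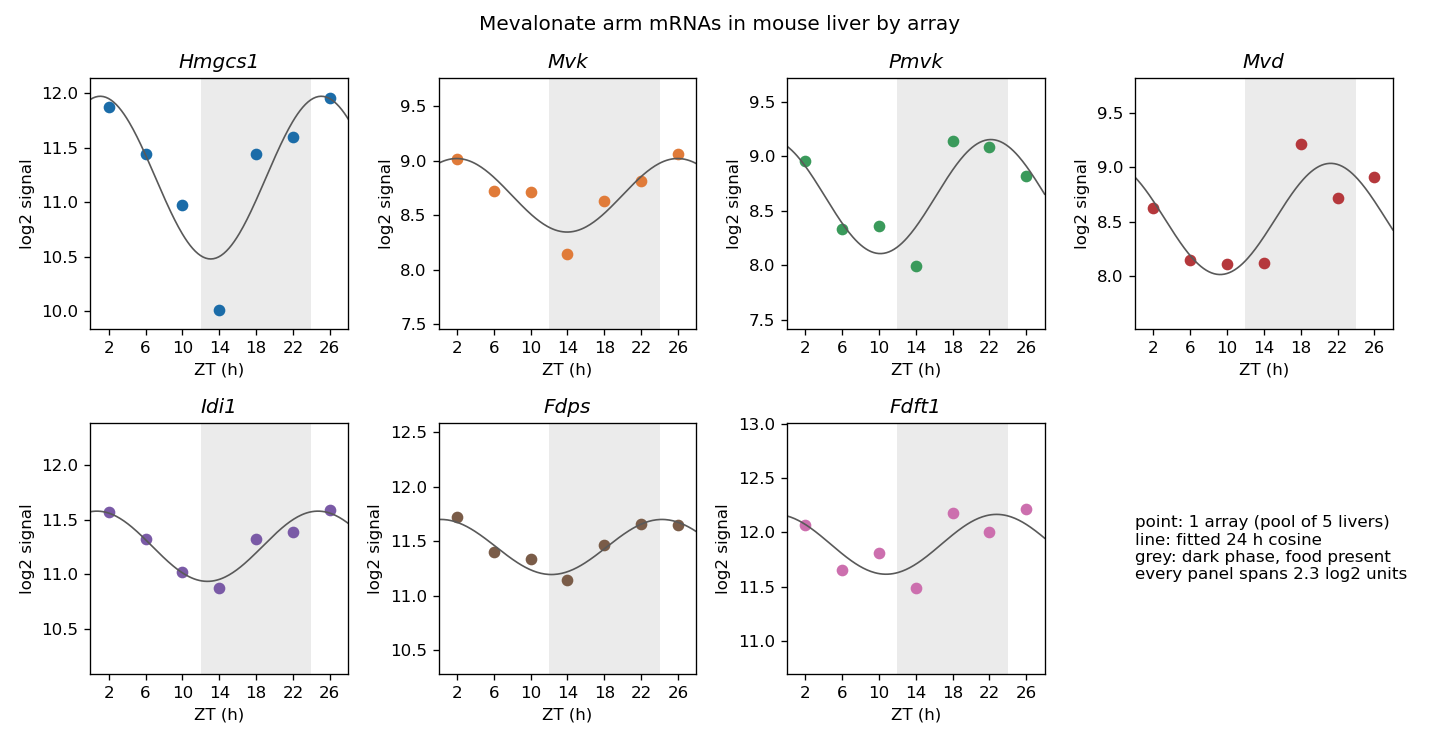
Log2 signal (vertical axis, each panel spanning the same height) of the 7 mevalonate arm mRNAs against ZT in hours, with points for single arrays, the line for the fitted 24 h cosine and grey for the dark phase when food was given. ZT14 is the lowest point in every panel but that of Mvd, and for Hmgcs1 it lies at 10.02, far under the curve.

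The first question was whether these mRNAs followed a 24 h rhythm. A cosine was fitted to all 7 arrays and tested with the moderated F-test of limma, adjusted over all 12076 probe sets. Idi1 and Fdps were called rhythmic, so 2 of 7 members passed adjusted p under 0.05, with 4.47% of all tested probe sets passing. Idi1 had an amplitude of 0.32 ± 0.05 (SE, log2, mean to peak) and a peak at ZT0.71 ± 0.59 h (adjusted p = 0.0338), and Fdps an amplitude of 0.25 ± 0.04 and a peak at ZT0.26 ± 0.65 h (adjusted p = 0.0424). Neither call was firm. Fdps lost it on leaving out any 1 of the 7 arrays (adjusted p 0.0574 to 0.142), and Idi1 kept it only without ZT18 or ZT22 (0.0313 to 0.136 over the 7 fits). Calls over the whole array also went from 540 to between 13 and 312 in these 7 fits.

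The remaining 5 members did not pass, although several had larger fitted amplitudes than those that did. Hmgcs1 had the largest, 0.75 ± 0.15, with a peak at ZT1.07 ± 0.83 h (adjusted p = 0.0673). Mvk had 0.34 ± 0.07 and a peak at ZT1.96 ± 0.91 h (adjusted p = 0.0792). Without the ZT14 array the fitted amplitude was 0.48 for Hmgcs1 and 0.22 for Mvk, so that array raised both. Pmvk had 0.52 ± 0.12 with a peak at ZT22.2 ± 0.82 h (adjusted p = 0.0937) and Mvd 0.51 ± 0.13 with a peak at ZT21.3 ± 0.90 h (adjusted p = 0.127). Fdft1 had the poorest fit, with an amplitude of 0.27 ± 0.10 and a peak at ZT22.8 ± 1.3 h (adjusted p = 0.234). At unadjusted p under 0.05, 6 of 7 members passed, against 25.7% of all tested probe sets. The median amplitude of the members was 0.34 and that of all tested probe sets 0.09.

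Fitted peaks of all 7 members lay between ZT20 and ZT4, called or not, as did 32.6% of all tested probe sets. Within that window the members spread over 4.71 h, from Mvd at ZT21.3 to Mvk at ZT1.96. Mvd, Pmvk and Fdft1 had peaks before ZT23, and Fdps, Idi1, Hmgcs1 and Mvk after ZT0. The difference between these peak times was not tested. Mvd and Pmvk were also the members whose highest array was ZT18, while Fdps was highest at ZT2 and the other 4 at ZT26. On leaving out 1 array at a time the largest shift of a member's peak was 1.93 h, for Fdft1 without ZT18. In the fits without ZT18 the peaks were at ZT23.0 for Mvd, ZT23.5 for Pmvk and ZT0.72 for Fdft1, none before ZT23. Those of Fdps, Idi1, Hmgcs1 and Mvk stayed after ZT0 in the fits without ZT18. The peak of Fdps fell before ZT0 in other fits, at ZT23.8 without ZT10 and ZT23.9 without ZT14. Fdft1 had its peak at ZT23.9 without ZT6. With all 7 arrays the other probe set of Fdft1 had its peak at ZT23.4.

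The ZT14 array, taken 2 h after food became available, was compared with its neighbours as the log2 value at ZT14 minus the mean of ZT10 and ZT18. This difference was -1.19 for Hmgcs1, -0.76 for Pmvk, -0.55 for Mvd, -0.53 for Mvk, -0.51 for Fdft1, -0.30 for Idi1 and -0.26 for Fdps. It was negative in all 7 members, with a median of -0.53, while over all tested probe sets the median was 0.00 and the 5th percentile -0.30. Only 12 of the 12076 tested probe sets, Hmgcs1 included, had a difference as low as that of Hmgcs1, and 46 one as low as that of Pmvk. Fdps was within the lower tail of all genes, with 829 probe sets at or below its value. ZT14 was at least 1.5-fold below its neighbours in 2 of 7 members, Hmgcs1 (2.29-fold) and Pmvk (1.69-fold), and in 0.894% of all tested probe sets. Against ZT10 alone the difference was -0.37 for Pmvk, no longer past 1.5-fold, -0.15 for Idi1 and -0.33 for Fdft1. Against ZT18 alone it was -1.15 for Pmvk and -0.45 for Idi1, so the size in these members turned on ZT18.

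ZT14 was lower than both ZT10 and ZT18 in 6 of 7 members (25.6% of all tested probe sets) and the lowest of the 7 arrays in the same 6 (17.2% of all). Mvd was the exception, since its ZT10 value lay just below ZT14, and its negative difference rested on the high ZT18 array alone. Against ZT10 alone the difference for Mvd was 0.0027.

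Whether ZT14 lay off the daily cosine was tested by adding a term for that array to the fit, which leaves 3 residual degrees of freedom. The dip at ZT14 was known when this test was written, so its p-values and counts serve as a description only. The largest departures of the members were those of Hmgcs1 (-0.94 ± 0.16, SE) and Pmvk (-0.69 ± 0.13), both below the curve. None of the 7 passed limma's test after adjustment (adjusted p = 0.410 for both Hmgcs1 and Pmvk), and 0% of all tested probe sets did, the smallest adjusted p over all being 0.280. At the unadjusted level, 3 of 7 members lay below the curve, Hmgcs1, Pmvk and Mvk, against 4.24% of all tested probe sets, and 892 probe sets passed that level in either direction. On natural-scale values 1 of 7 members did, Pmvk, and 888 of all tested probe sets passed in either direction. Mvk had a departure of -0.39 ± 0.13, with adjusted p = 0.631. ZT14 was a single pool, so a property of that pool and of that time cannot be told apart.

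**Figure D2:**
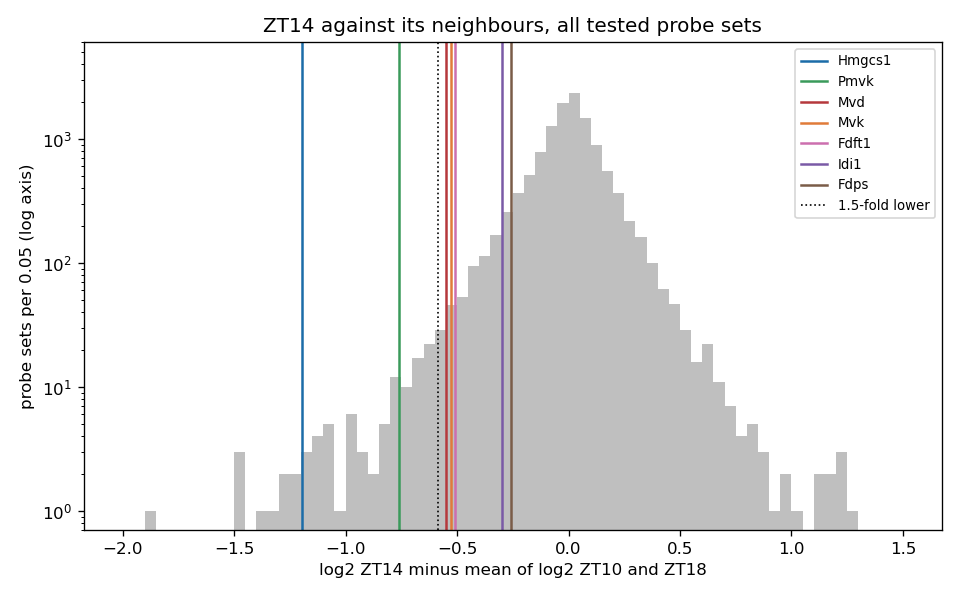
Number of tested probe sets (vertical axis, log scale) by the log2 difference between ZT14 and the mean of ZT10 and ZT18 (horizontal axis), with coloured lines for the 7 members and a dotted line at 1.5-fold lower. All 7 members lie left of the median of 0.00, from Fdps at -0.26 to Hmgcs1 at -1.19.

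The course between arrays was much alike across the 7 enzymes at certain steps and not at others. From ZT2 to ZT6, in the light with no food, all 7 members were lower, with a median log2 step of -0.41, while 55.7% of all tested probe sets were higher. The step of Pmvk, -0.62, was the only one past 1.5-fold (0.621% of all were lower by as much). From ZT6 to ZT10 the members differed, with 2 of 7 higher (45.8% of all) and a median step of -0.03, Hmgcs1 being lower by a step of -0.47 and Fdft1 higher by 0.16. From ZT10 to ZT14, 1 of 7 was higher, Mvd by 0.0027 (47.8% of all), and the median step was -0.33. Hmgcs1 was lower by a step of -0.96, the only one past 1.5-fold (1.87% of all).

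From ZT14 to ZT18, during feeding, all 7 were higher, with a median step of 0.69, and 45.5% of all tested probe sets were higher. This step was past 1.5-fold in 4 members, Hmgcs1 (2.69-fold), Pmvk (2.22-fold), Mvd (2.14-fold) and Fdft1 (1.62-fold), and in 1.71% of all. It was smallest for Fdps (1.25-fold), Idi1 (1.36-fold) and Mvk (1.40-fold). The part of the whole ZT14 to ZT26 log2 difference already present at ZT18 was 53.1% for Mvk, 62.6% for Idi1, 63.8% for Fdps, 73.7% for Hmgcs1 and 95.5% for Fdft1. Pmvk and Mvd were above their ZT26 level by then, at 138% and 139%. From ZT18 to ZT22 the direction split, with 4 of 7 higher (48.2% of all) and Mvd lower by a step of -0.50, and from ZT22 to ZT26, 5 of 7 were higher (50.9% of all) with a median step of 0.20. Each step rests on 2 arrays and was not tested.

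Set against their own means over the 7 arrays, all 7 members were above it at ZT2, ZT22 and ZT26 and none at ZT10 or ZT14, while 5 were above it at ZT18 and 2 at ZT6. The median member lay at -0.43 at ZT14 and at 0.30 at ZT26. The same median over all tested probe sets stayed between -0.01 and 0.01.

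**Figure D3:**
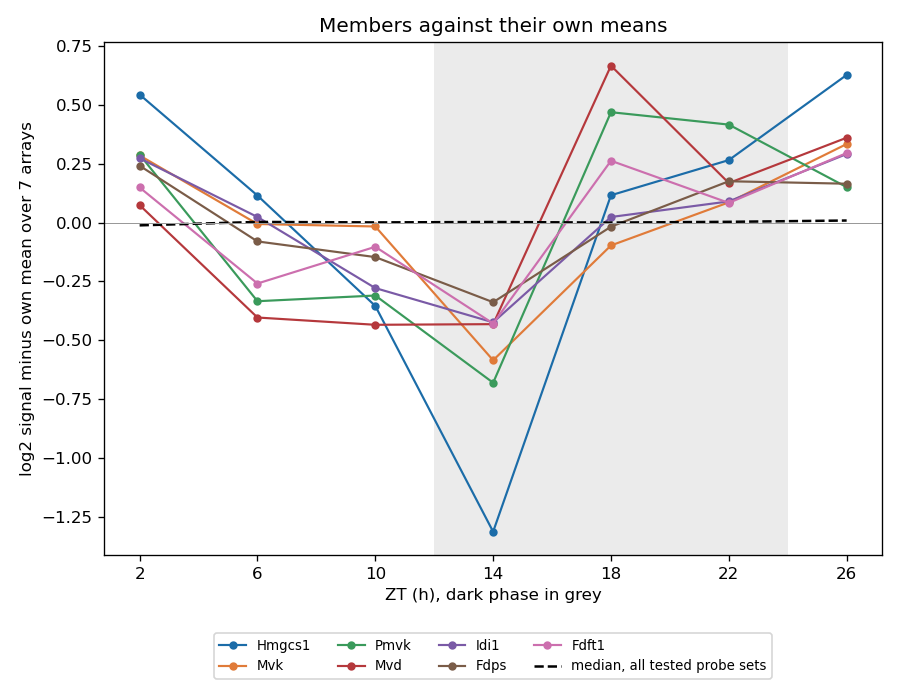
Log2 signal of each member minus its own mean over the 7 arrays (vertical axis) against ZT in hours, with the dark phase in grey and the median of all tested probe sets as a dashed line. All 7 lines lie under their means at ZT10 and ZT14 and above them at ZT22 and ZT26, and Mvd and Pmvk are highest at ZT18.

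The ZT2 and ZT26 arrays, which share a clock time and come from different animals, gave the only repeat. Their absolute log2 difference had a median of 0.08 over the 7 members and of 0.09 over all tested probe sets. It ran from 0.02 for Idi1 to 0.29 for Mvd, and ZT26 was higher in Hmgcs1, Mvk, Mvd, Idi1 and Fdft1 and lower in Pmvk and Fdps. All 7 differences come from the same 2 arrays, so they are no measure of how far arrays of a time vary in general. For Mvd the repeat difference of 0.29 was wider than the whole range of its ZT6, ZT10 and ZT14 values.

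How closely the enzymes ran together was described by correlation over the 7 arrays for the 21 pairs of members, which share arrays, pools and normalization. Pearson's r had a median of 0.82 (0.44 to 0.96) and Spearman's rho a median of 0.75, r was over 0.8 in 12 pairs, and no pair was below 0. Hmgcs1 and Idi1 were most alike (r = 0.96), followed by Hmgcs1 and Mvk (0.95), and Mvk and Mvd, consecutive but for Pmvk, were least alike (0.44). Pmvk, Mvd and Fdft1 had r of 0.88 to 0.91 among themselves, and Hmgcs1, Mvk, Idi1 and Fdps of 0.89 to 0.96, a division made after the values were seen. The median rested in part on ZT14. Without that array the median r was 0.62 (0.16 to 1.00) and 7 pairs had r over 0.8. Each member was also set against the mean of the other 6, with r from 0.73 for Mvd to 0.93 for Hmgcs1.

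**Figure D4:**
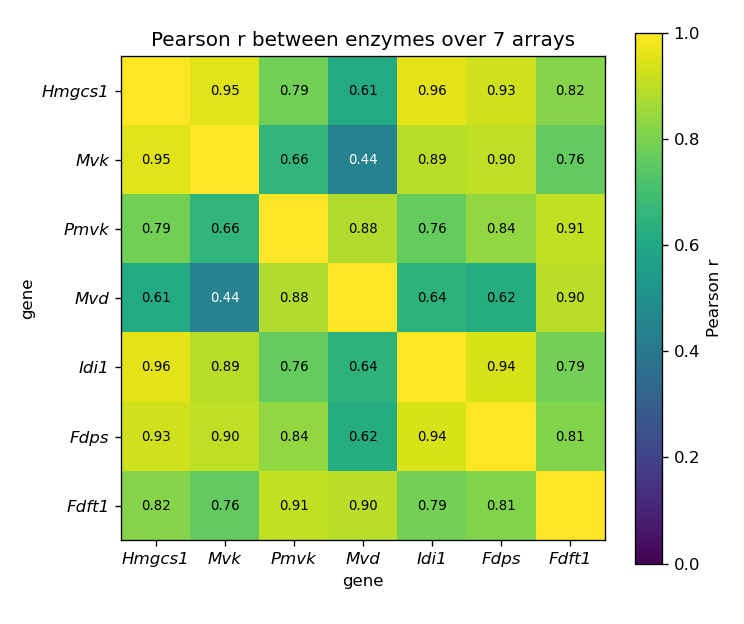
Pearson's r over the 7 arrays for each pair of the 7 members (both axes list genes, colour and printed value give r). The lowest value is 0.44, for Mvk and Mvd, and the highest 0.96, for Hmgcs1 and Idi1.

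The later steps from squalene to cholesterol were represented by 10 further genes with a probe set. Of these 1 was called rhythmic (4.47% of all tested probe sets), Nsdhl, a sterol dehydrogenase of C4 demethylation. Its amplitude was 0.26 ± 0.04 and its peak at ZT3.78 ± 0.65 h (limma adjusted p = 0.0424), and this call was lost on leaving out any 1 array. At unadjusted p under 0.05, 8 of 10 later genes passed (25.7% of all). All 10 had fitted peaks between ZT20 and ZT4 (32.6% of all), and their median amplitude was 0.28. ZT14 was below both neighbours in 9 of 10 (25.6% of all) and the lowest array in 8 (17.2% of all). The median difference of ZT14 from its neighbours was -0.33, and all 10 were higher at ZT18 than at ZT14 (45.5% of all). The later enzymes thus had the same signs as the mevalonate arm with a smaller median. The difference between these lists was not tested.

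**Figure D5:**
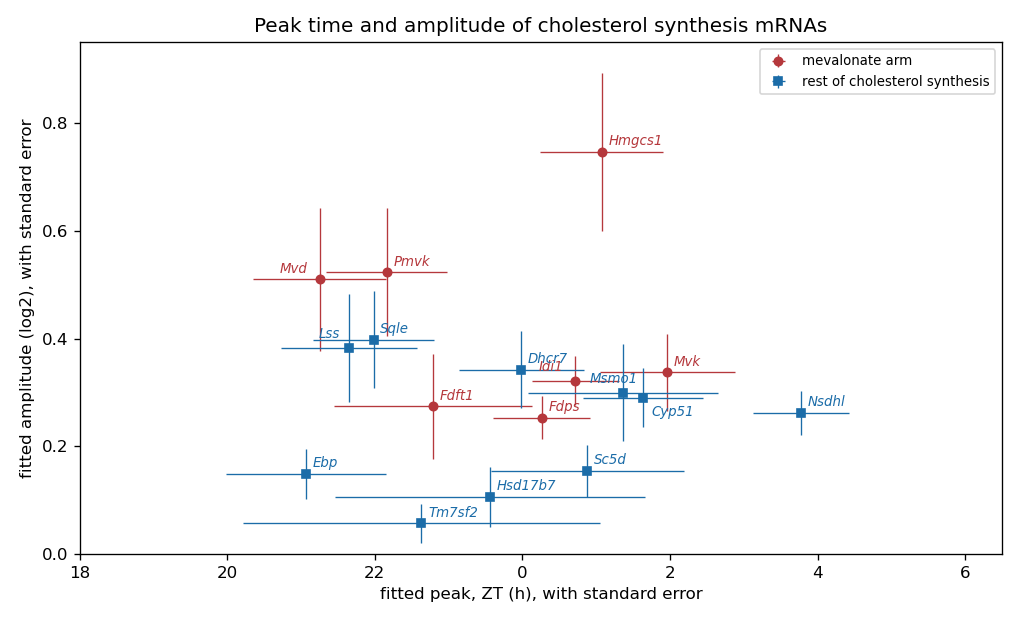
Fitted amplitude (log2, vertical axis) against fitted peak time (ZT in hours, horizontal axis) with standard errors for the 7 mevalonate arm genes (circles) and 10 genes of later cholesterol synthesis (squares), called rhythmic or not. All 17 peaks lie between ZT20 and ZT4, and Hmgcs1 has the largest amplitude at 0.75.

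Among 15 genes of sterol sensing and uptake, 3 were called rhythmic, against 4.47% of all tested probe sets. Srebf2, which encodes SREBP-2, had an amplitude of 0.32 ± 0.05 and a peak at ZT21.5 ± 0.51 h (limma adjusted p = 0.0369). Insig2, which holds SREBP in the endoplasmic reticulum, had 0.87 ± 0.12 and a peak at ZT0.42 ± 0.59 h (adjusted p = 0.0351). Lpin1, a phosphatidate phosphatase that also acts on SREBP in the nucleus, had 1.08 ± 0.18 with a peak at ZT12.2 ± 0.69 h (adjusted p = 0.0493), and was highest at ZT14, where the mevalonate enzymes were low. Srebf2 and Insig2 were lowest at ZT10 and not at ZT14. Fitted peaks lay between ZT20 and ZT4 in 5 of these 15 genes, a share near the 32.6% of all tested probe sets, and ZT14 was the lowest array in 1 (17.2% of all).

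With limma at unadjusted p under 0.05, 4 of 7 enzymes around the acetyl-CoA pool passed (25.7% of all tested probe sets). After adjustment 0 of 7 of these enzymes were called rhythmic (4.47% of all). Those of largest amplitude were Acly, ATP citrate lyase, which makes cytosolic acetyl-CoA (0.43 ± 0.09, peak at ZT20.9 ± 0.72 h, adjusted p = 0.0791), and Bdh1, a ketone body dehydrogenase (0.29 ± 0.06, peak at ZT7.46 ± 0.65 h, adjusted p = 0.0652). Acat3, which lies next to Acat2 in the genome and encodes a related thiolase, was picked out after its values were seen because Acat2 was not analysed here. It gave 11.39 at ZT2, 10.89 at ZT14, its lowest array, and 11.30 at ZT26 (amplitude 0.21 ± 0.04, adjusted p = 0.0697), and its probe set cannot stand for Acat2.

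Genes that make or use isoprenoids outside sterol synthesis, as in prenylation, ubiquinone and dolichol, were called rhythmic in 0 of 10 cases (4.47% of all tested probe sets). At unadjusted p under 0.05 with limma, 0 of 10 of these genes passed (25.7% of all). Their median amplitude was 0.05. The largest were Nus1, of dolichol synthesis (0.17 ± 0.06, adjusted p = 0.253), and Rabggta, a subunit of Rab prenyltransferase (0.15 ± 0.05, adjusted p = 0.247). ZT14 was the lowest array in 2 of 10, a share near the 17.2% of all tested probe sets.

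Markers of the cell types in liver were examined beside these results. The summed signal of the 7 members ran from 8860 units at ZT14 to 16480 at ZT26, 1.86-fold. Hepatocyte markers, with 9 genes tested, summed to between 115707 and 119406 units, 1.03-fold. With limma 0 of 9 were called rhythmic (4.47% of all tested probe sets) or passed at unadjusted p under 0.05 (25.7% of all). Their sum came mostly from probe sets near the brightest value of any array, and Hnf4a, the dimmest of the 9 (mean 12.21), spanned 1.51-fold and was highest at ZT14. Several lists of other cell types were high in the same part of the day as the members. Of the Kupffer cell markers, all 11 that were tested had fitted peaks between ZT20 and ZT4 (32.6% of all), and 6 were called rhythmic (4.47% of all). None of the 12 with a probe set was at or below 43 units, and their sum ran from 6013 units at ZT10 to 9390 at ZT26, 1.56-fold. At ZT14 they were less low, with a median difference from the neighbours of -0.08 against -0.53 for the members. ZT14 was their lowest array in 4 of 11 (17.2% of all). Stellate cell markers summed to between 6536 and 7914 units, most of it from Dcn. Of these, 5 of 6 had peaks between ZT20 and ZT4 (32.6% of all) and 5 of 6 passed at unadjusted p under 0.05 (25.7% of all). Pdgfrb among them was called rhythmic (limma adjusted p = 0.0308), was lowest at ZT14 and was 1.81-fold higher at ZT26. Cholangiocyte markers summed to 389 units at ZT10 and 661 at ZT26, 1.70-fold, nearly all of the change from Sox9, the only one of 4 bright enough to be tested (peak at ZT22.9, adjusted p = 0.0791). Lymphocyte markers summed to 305 units at ZT14 and 453 at ZT26, with 2 of 6 at or below 43 units and 1 tested. Over the 7 arrays the correlation of the summed signal with the mean of the members was 0.93 for lymphocyte, 0.84 for Kupffer cell, 0.67 for stellate and 0.65 for cholangiocyte markers, given as a description. Endothelial markers summed to between 6361 and 8118 units (r = 0.31). Of these, 6 of 8 had peaks between ZT20 and ZT4 (32.6% of all). With limma 2 of 8 passed at unadjusted p under 0.05 (25.7% of all). For the sum of the hepatocyte markers r was -0.09, and 5 of 9 had peaks in that window. The part of other cell types in the members' values was not tested.

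The genes outside the mevalonate arm whose 7 values were most like the mean profile of the members, each scaled to its own mean and SD, were Dapk1, a death-associated protein kinase (r = 0.99), Dhcr7, the last reductase of cholesterol synthesis (0.99), Psen2, a presenilin (0.99), Tbxas1, thromboxane synthase (0.99), Dusp16, a MAP kinase phosphatase (0.98) and Pter, a phosphotriesterase-related protein (0.97). All 6 were lowest at ZT14 and highest at ZT26, as was the mean profile they were picked to match, so this adds no evidence. Over the 10966 genes, 145 (1.32%) had r over 0.9, so with 7 points such values are reached by many genes. Dapk1 differed at ZT14 from its neighbours by -0.65 and Dhcr7 by -0.51, close to the members' median, whereas Psen2 and Dusp16 did so by -0.24 each.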

How the data were processed

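Liver RNA of 5 mice per time was pooled by the authors and hybridized to 7 arrays. The deposited table holds log2 values made by the authors with RMA in Affymetrix Expression Console 1.1.2637.26569, for 35556 probe sets. The genome build behind them is not given in the sources used here. Probe sets were named from the platform annotation: 21789 had 1 gene symbol, 1621 several and 12146 none, and the last 2 classes were left out. Tests ran on the 12076 probe sets whose mean exceeded 85 units, the minimum of the study's methods.

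The log2 values were fitted in limma 3.58.1 (R 4.3.3) with cosine and sine terms of 24 h (4 residual degrees of freedom). The moderated F-test was adjusted by Benjamini-Hochberg over all tested probe sets. A ZT14 indicator was added for the departure (3 residual degrees of freedom, two-sided). The scripts were tested on simulated data. The named genes were all members, the rhythmic genes of each pathway list (at most 4) or else the 2 of largest amplitude, 3 clock genes, and the 6 genes most like the members' profile. Members and lists were chosen with earlier results of these data known. Alternatives covered leaving out each array, the methods' Fisher test for one period, natural-scale values, other filters, median centring, 12 h terms, averaging ZT2 with ZT26, other probe sets and another ZT14 reference. The number of arrays limits the precision. Promoter sequence came from RefSeq.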

Additional observations from a re-analysis of the deposited data

How the results depend on the processing

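The count of members called rhythmic, 2 of 7, was 0 to 2 on leaving out 1 array at a time: 0 without ZT2, ZT6, ZT10, ZT14 or ZT26, 1 without ZT22 (Idi1), and 2 without ZT18, where Hmgcs1 (adjusted p = 0.0477) and Idi1 passed and Fdps did not. It was 0 with the Fisher test for one period, on natural-scale values, with no filter on low values, with 12 h terms added and with ZT2 and ZT26 averaged, and 1 with a minimum of 43 units. It stayed at 2 with median centring and with the mean of a gene's probe sets. Calls over the whole array, 540 in the reported fit, were also fewer under every setting but median centring (570). Without ZT2, ZT6, ZT10, ZT14 and ZT26 they were 13, 170, 102, 34 and 83. Without ZT22 they were 312 and without ZT18 189. The count was 57 with no filter, 321 with the minimum of 43 units and 0 with the Fisher test. Natural-scale values gave 68, 12 h terms 46, the averaged pair 93 and the mean of a gene's probe sets 495. The cause was not tested. For the later steps of cholesterol synthesis, where 1 gene was called, the count was 0 to 2 on leaving out arrays (2 without ZT18, Sqle and Cyp51 in place of Nsdhl) and 0 with the Fisher test, natural-scale values, no filter, the minimum of 43 units, 12 h terms and the averaged pair (alternatives chosen after seeing the data).

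The count of members at least 1.5-fold lower at ZT14 was 1 without ZT18 (1.87% of all tested probe sets) and 4 without ZT10 (1.71% of all). It was 2 or 3 otherwise (0.894% of all in the reported setting). Without ZT18 the ZT14 difference of Mvd changed sign, to 0.0027 (range -1.10 to 0.0027 over the arrays left out), and so did the departure of Idi1 from the cosine (adjusted p = 0.989, range 0.730 to 0.989). The departure test called 0 of all tested probe sets in the reported fit and under each of its 10 alternatives, so its count of 0 members says nothing about stability. At the unadjusted level the members' count was 1 on natural-scale values, against 3 in the reported fit. Over all tested probe sets these counts were 888 and 892. The median r between enzymes was 0.62 to 0.88 on leaving out arrays, and 0.62 without ZT14, an alternative chosen after seeing the data. No paired analysis was possible because each time had 1 array, whose replicate number only names it.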
